A study of Homo sapiens with 12 samples.

Results

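The genes that carry human cells out of G1 and copy the genome were followed in messenger RNA of HEK-293T, a line of human embryonic kidney origin with the SV40 large T antigen. A list of 41 genes was taken by symbol from the deposited tables, out of 58288 gene IDs. The list runs from the G1 cyclins and the E2F factors through origin licensing and the replicative helicase to the enzymes of the fork and of nucleotide supply. Every cell sample held a CIRTS protein, an RNA effector that a guide RNA steers to a transcript, so no sample without an effector entered the comparisons. The 4 groups of 3 libraries were an effector named YTHDF2 (CIRTS-3) with a guide against SMARCA4, the same effector with a non-targeting (NT) guide, an effector named a nuclease (CIRTS-12) with the SMARCA4 guide, and the nuclease with the NT guide. They are called YTHDF2-SMARCA4, YTHDF2-NT, nuclease-SMARCA4 and nuclease-NT. YTHDF2 is a reader of m6A that brings deadenylases to mRNA, and SMARCA4 codes for BRG1, the motor subunit of BAF chromatin remodellers. The 3 libraries of a group are described as biological replicates, and the labels used here say nothing of how the cultures were grown, transfected or split into batches. Effector and any batch that went with it therefore cannot be told apart.

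In a dividing cell, cyclin D and cyclin E kinases phosphorylate RB, which frees E2F factors to switch on the genes of DNA synthesis. Origins are licensed when ORC, CDC6 and CDT1 load the MCM2 to MCM7 ring, geminin (GMNN) then blocks CDT1, and CDC45 and GINS join the ring to form the working helicase. SV40 large T antigen binds RB, so in HEK-293T cells the gate between RB and E2F is known to be loosened. The design asks whether the SMARCA4 guide changed mRNA levels, with each effector, and this list compares the mRNAs of DNA replication genes between the groups.

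Libraries held 9207196 to 18047859 estimated counts, and all 41 genes passed the filter on low counts, with 108 to 9651 counts per gene and library. The HEK-293T markers VIM, NEFM, NEFL and KRT18 were each above 50 CPM in every library, while PAX2 stayed between 1.36 and 4.02 CPM. Of the markers of other cells, HBB had 0 counts in all libraries, and PTPRC, ALB, APOA1 and LYZ stayed below 0.5 CPM. The fibroblast gene COL1A1 was at 8.62 to 12.8 CPM and COL3A1 at 1.07 to 2.75 CPM, and the epithelial genes CDH1 and EPCAM were at 2.36 to 6.65 and 1.87 to 3.94 CPM. DCN, LUM, PDGFRA and CD14 reached at most 0.788, 1.14, 1.46 and 1.22 CPM. The targeted gene, SMARCA4, was at 243.4, 210.2 and 220.6 CPM in YTHDF2-SMARCA4, against 302.4, 234.8 and 250.2 CPM in YTHDF2-NT. It averaged 236.1 ± 15.4 CPM in nuclease-SMARCA4 and 237.6 ± 10.7 CPM in nuclease-NT (SD, n = 3 each). Neither difference passed the edgeR test after adjustment over all genes tested. With YTHDF2 the log2 fold change of SMARCA4 was -0.22 (edgeR, unadjusted p = 0.0337, adjusted p = 0.703). With the nuclease it was -0.01 (edgeR, unadjusted p = 0.930, adjusted p = 0.985). CPM are counts scaled to a common library total after TMM, used to compare a gene between libraries, and TPM are length-scaled values, used to compare genes with each other.

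The promoters show what many of these genes share in sequence. RefSeq windows of GRCh38.p14, 250 bases before to 50 bases after a transcription start, were matched to 33 of the 41 genes by symbol. They were searched on both strands for the E2F motif TTTCCCGC, TTTCGCGC, TTTGCCGC or TTTGGCGC, and for CCAAT, the motif bound by NF-Y. Matches to different motifs were allowed to overlap. An E2F match was present in 20 of the 33 genes, 60.6%, against 3.99% of the 27305 genes with a window. Those 27305 were not limited to genes tested here, and the list was picked for a pathway that E2F factors switch on. The contrast is a description and was not tested. Counted by window, E2F matches stood in 20 of the 44 windows of these genes and in 3.31% of all 35116 windows. CCAAT was present in 60.6% of the 33 genes, against 39.7% of all genes with a window, and 13 genes held both. The letters are a description of these windows and not a measurement of any factor. The stretches below are shown because their genes carry the comparisons or are classic members of the pathway. They read 5′ to 3′ on the gene's strand, with the searched motifs in capitals in either orientation.
CDC25A, chr3:48188438-48188537, minus strand: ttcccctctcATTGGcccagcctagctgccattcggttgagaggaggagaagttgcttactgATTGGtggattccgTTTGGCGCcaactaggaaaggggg
E2F1, chr20:33686386-33686505, minus strand: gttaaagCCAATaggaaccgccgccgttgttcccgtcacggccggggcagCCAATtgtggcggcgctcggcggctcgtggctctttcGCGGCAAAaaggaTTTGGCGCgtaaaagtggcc
CDC6, chr17:40287749-40287848, plus strand: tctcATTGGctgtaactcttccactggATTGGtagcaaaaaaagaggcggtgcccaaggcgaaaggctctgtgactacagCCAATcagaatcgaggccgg
CDT1, chr16:88803709-88803788, plus strand: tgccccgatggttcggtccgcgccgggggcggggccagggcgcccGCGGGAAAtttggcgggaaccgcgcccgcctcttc
MCM6, chr2:135876494-135876603, minus strand: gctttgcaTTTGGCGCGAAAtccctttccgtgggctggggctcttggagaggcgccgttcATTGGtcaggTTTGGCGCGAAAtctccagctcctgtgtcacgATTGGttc
POLE, chr12:132687343-132687462, minus strand: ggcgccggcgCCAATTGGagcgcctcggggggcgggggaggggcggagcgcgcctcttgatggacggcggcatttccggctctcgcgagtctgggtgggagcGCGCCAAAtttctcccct
LIG1, chr19:48170415-48170474, minus strand: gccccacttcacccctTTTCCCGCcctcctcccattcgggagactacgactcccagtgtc
PCNA, chr20:5126633-5126782, minus strand: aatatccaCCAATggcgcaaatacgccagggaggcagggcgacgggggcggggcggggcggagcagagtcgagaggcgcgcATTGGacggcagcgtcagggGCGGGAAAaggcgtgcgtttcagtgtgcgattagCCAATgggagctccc
RRM2, chr2:10122609-10122688, plus strand: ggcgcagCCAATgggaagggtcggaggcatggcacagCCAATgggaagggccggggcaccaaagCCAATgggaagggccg

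In the MCM6 stretch, 2 copies of a 12-base run each hold overlapping matches on the 2 strands, so 4 E2F matches were counted. The RRM2 stretch repeats CCAAT 3 times, each followed by the same run of bases, and holds no E2F match. In the POLE stretch the CCAAT matches of the 2 strands overlap. The CDC6 window has its E2F match 7 bases past the start, outside the stretch shown, while 3 CCAAT matches lie upstream. By role, E2F matches were found in 4 of 5 MCM genes, 3 of 4 genes of CDC45 and GINS, 3 of 5 licensing genes and 3 of 5 genes of the cyclin and E2F group. They were found in 5 of 9 fork enzymes and 2 of 5 genes of the nucleotide group, TYMS and UNG. Genes without a RefSeq window here were CCND1, CCND2, CCNE2, CDK2, GINS4, MCM4, MCM5 and RPA2.

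The list was abundant in these cells. The median gene reached 78.1 TPM as a mean over 12 libraries, against 8.59 TPM for all 16297 genes tested, and 40 of the 41 lay above that value. PCNA, the sliding clamp of the polymerases, was the highest at 391.6 TPM, at the 97.9th percentile of genes tested. CCND1, cyclin D1, was the lowest at 3.08 TPM, at the 30.4th percentile.

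**Figure D1:**
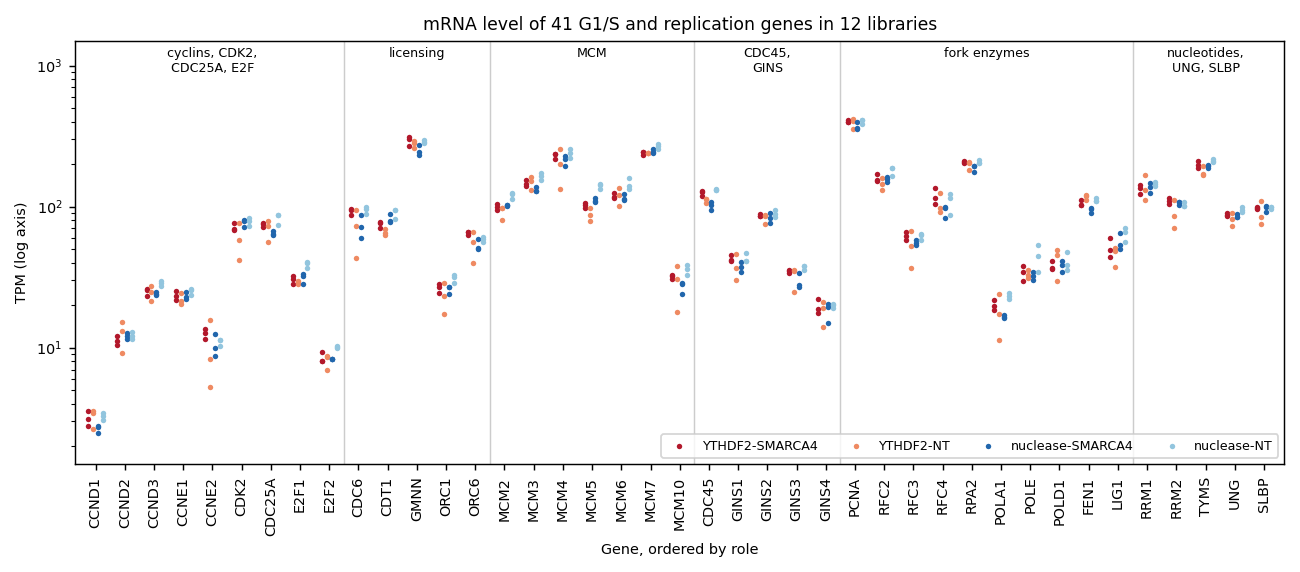
TPM (log axis) of the 41 genes in the 12 libraries, ordered by role; each point is 1 library, coloured by group. PCNA stands at the top, near 391.6 TPM, and CCND1 at the bottom, near 3.08 TPM, while the groups of a gene lie close together.

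Among the cyclins, CDK2, CDC25A and the E2F factors, the range was widest at the low end. CDC25A, the phosphatase that removes inhibitory phosphates from CDK2, had 75.8, 76.5 and 71.6 TPM in YTHDF2-SMARCA4 and 55.7, 78.7 and 72.6 TPM in YTHDF2-NT. It had 64.2, 63.1 and 67.1 TPM in nuclease-SMARCA4 and 73.5, 87.7 and 87.6 TPM in nuclease-NT. The nuclease-NT libraries were the highest of its nuclease libraries. CCND1 had 2.79, 3.55 and 3.15 TPM in YTHDF2-SMARCA4 and 2.64, 3.57 and 3.43 TPM in YTHDF2-NT. It had 2.73, 2.49 and 2.79 TPM in nuclease-SMARCA4 and 3.45, 3.07 and 3.28 TPM in nuclease-NT. CCND2 (12.03 TPM on average) and CCND3 (25.5 TPM) both lay above CCND1, and all 3 D cyclins pair with CDK4 or CDK6 at the start of G1. Cyclin E1 (CCNE1, 23.5 TPM) lay above cyclin E2 (CCNE2, 10.9 TPM), the partners of CDK2 (71.6 TPM). E2F1 averaged 32.4 TPM and E2F2 8.77 TPM. CCND1 shares 497 exon bases with LTO1, on the opposite strand, and CCNE2 shares 1629 with INTS8. No source used here gives the strand setting of the counting, so the levels of CCND1 and CCNE2 may hold reads of those neighbours.

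In licensing, GMNN was far above the loaders. It had 267.9, 310.4 and 299.7 TPM in YTHDF2-SMARCA4, 261.5, 292.3 and 283.8 TPM in YTHDF2-NT, 245.5, 232.2 and 272.2 TPM in nuclease-SMARCA4 and 282.0, 296.9 and 288.5 TPM in nuclease-NT. ORC1, the ATPase subunit of the origin recognition complex, was the lowest. It had 27.1, 28.3 and 24.5 TPM in YTHDF2-SMARCA4, 17.3, 28.6 and 23.2 TPM in YTHDF2-NT, 26.8, 24.2 and 27.0 TPM in nuclease-SMARCA4 and 28.7, 31.5 and 32.9 TPM in nuclease-NT. The first YTHDF2-NT library held the lowest ORC1 value of all 12. Between GMNN and ORC1 lay CDC6 (82.6 TPM), which loads the ring onto ORC, CDT1 (78.1 TPM), which brings it, and the small ORC subunit ORC6 (57.6 TPM).

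The 6 ring subunits kept within 2.40-fold of each other, from MCM2 (103.6 TPM), MCM5 (110.4 TPM) and MCM6 (124.5 TPM) to MCM3 (147.7 TPM), MCM4 (219.4 TPM) and MCM7. These values sum all transcript models. Protein-coding models held 22.75% of the TPM of MCM7 and 49.6% of MCM4, against 68.0% (MCM6) to 99.7% (MCM3) in the others. The order and range therefore need not hold for coding models alone. MCM7 had 243.2, 242.0 and 231.5 TPM in YTHDF2-SMARCA4, 239.2, 239.4 and 241.2 TPM in YTHDF2-NT, 244.3, 256.8 and 241.3 TPM in nuclease-SMARCA4 and 254.4, 268.9 and 276.5 TPM in nuclease-NT. MCM10, which is not part of the ring and helps to activate the helicase, was the lowest of the MCM group. It had 32.4, 33.0 and 30.9 TPM in YTHDF2-SMARCA4, 18.0, 37.7 and 30.8 TPM in YTHDF2-NT, 28.5, 24.1 and 28.7 TPM in nuclease-SMARCA4 and 32.8, 36.1 and 38.4 TPM in nuclease-NT. The lowest and the second highest of its 12 values both came from YTHDF2-NT.

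CDC45 stood above the 4 GINS subunits that complete the helicase. It had 127.9, 118.1 and 129.3 TPM in YTHDF2-SMARCA4, 105.3, 113.0 and 113.2 TPM in YTHDF2-NT, 94.98, 103.4 and 108.5 TPM in nuclease-SMARCA4 and 130.8, 134.2 and 132.2 TPM in nuclease-NT. GINS4 was the lowest, with 18.8, 22.1 and 17.6 TPM in YTHDF2-SMARCA4, 14.1, 20.97 and 19.1 TPM in YTHDF2-NT, 15.0, 19.4 and 20.5 TPM in nuclease-SMARCA4 and 20.0, 20.4 and 19.2 TPM in nuclease-NT. GINS2 (85.6 TPM), GINS1 (40.2 TPM) and GINS3 (33.3 TPM) lay between, although the 4 proteins form a complex with 1 copy of each.

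At the fork, PCNA had 401.1, 408.5 and 400.1 TPM in YTHDF2-SMARCA4, 355.3, 416.7 and 404.5 TPM in YTHDF2-NT, 354.9, 360.5 and 395.3 TPM in nuclease-SMARCA4 and 383.5, 408.8 and 410.1 TPM in nuclease-NT. RPA2, which coats single strands, averaged 200.5 TPM, and the clamp loader subunits were RFC2 at 160.5, RFC4 at 106.3 and RFC3 at 57.9 TPM. The polymerases were lower: POLD1 of the lagging strand averaged 39.5 TPM, POLE of the leading strand 36.0 TPM and POLA1, which starts each fragment, 19.4 TPM. POLA1 had 21.7, 18.6 and 19.8 TPM in YTHDF2-SMARCA4, 11.2, 24.0 and 17.4 TPM in YTHDF2-NT, 16.6, 16.3 and 17.0 TPM in nuclease-SMARCA4 and 23.4, 24.4 and 22.2 TPM in nuclease-NT. The first YTHDF2-NT library again gave the lowest value and the second a value close to the highest. The Okazaki fragment enzymes FEN1, a flap nuclease, and LIG1, the ligase that seals the nicks, averaged 107.4 and 54.3 TPM.

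In the nucleotide group, TYMS, which makes thymidylate, had 211.3, 188.9 and 198.6 TPM in YTHDF2-SMARCA4, 166.6, 194.4 and 171.2 TPM in YTHDF2-NT, 193.6, 187.3 and 195.9 TPM in nuclease-SMARCA4 and 207.7, 211.8 and 218.0 TPM in nuclease-NT. UNG, which removes uracil from DNA, had 87.4, 89.5 and 85.2 TPM in YTHDF2-SMARCA4, 73.2, 89.9 and 81.1 TPM in YTHDF2-NT, 84.8, 85.0 and 89.2 TPM in nuclease-SMARCA4 and 91.9, 94.9 and 99.0 TPM in nuclease-NT. On TPM, all 3 nuclease-NT values of UNG were above every other library. On CPM they were 158.3, 159.6 and 167.5, and overlapped the other groups. The first YTHDF2-NT library had 167.2 CPM and the second nuclease-SMARCA4 library 163.2 CPM. RRM1 (137.8 TPM) and RRM2 (102.4 TPM), the subunits of ribonucleotide reductase, and SLBP (95.8 TPM), which binds the stem loop of histone mRNA, lay in a narrow band. MCM7 shares 392 exon bases with AP4M1, TYMS shares 967 exon bases with ENOSF1, both on the opposite strand, and the processed pseudogene RRM2P3 was counted at 5.73 CPM beside 225.7 CPM for RRM2, so part of those reads may be exchanged.

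Most of these levels came from protein-coding transcript models, with a few exceptions. The 41 genes have 344 models, the median share of a gene's TPM on protein-coding models was 95.8%, and in 38 genes the model with the most TPM was protein coding. For MCM7, the retained-intron model MCM7-210 held 74.5% of TPM, and MCM7-201, which codes for the protein, 22.6%. For POLE, the nonsense-mediated decay (NMD) model POLE-221, 659 bases long, held 25.8% and the coding model POLE-201, 7840 bases long, 24.7%. For LIG1, the NMD model LIG1-213 held 21.5%, and all protein-coding models together 32.0%. A short NMD model of MCM4, MCM4-204 with 366 bases, took 43.8% of its TPM, and RRM1-213 took 37.2% of that of RRM1. TPM divides by length, so a short model needs few reads for a large share, and the split between models is an estimate made by kallisto. The shares of MCM7 on protein-coding models were 25.1% ± 0.605 in YTHDF2-SMARCA4, 20.9% ± 5.28 in YTHDF2-NT, 22.6% ± 2.05 in nuclease-SMARCA4 and 22.3% ± 1.87 in nuclease-NT (SD, n = 3 each).

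**Figure D2:**
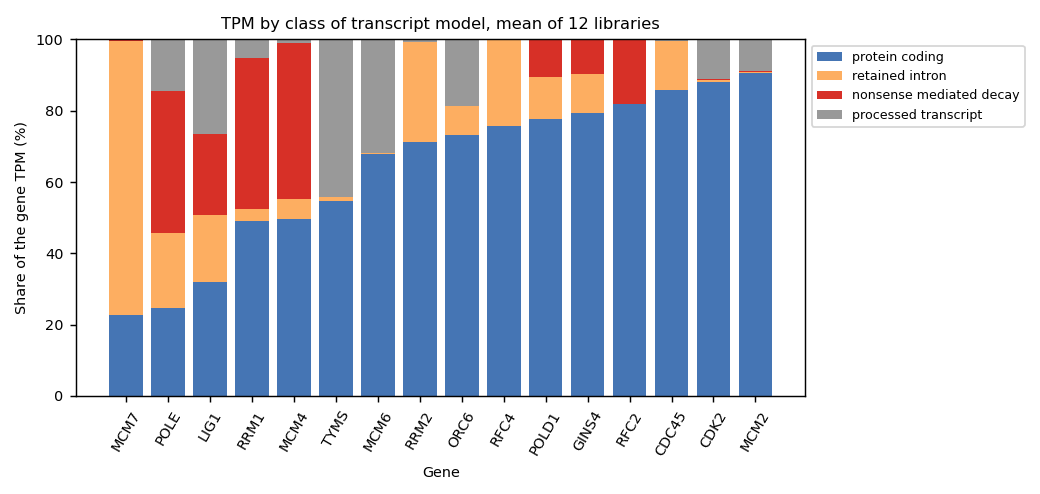
Share of each gene's TPM (%, mean of 12 libraries) by class of transcript model, for the 16 genes with the lowest protein-coding share. MCM7 is mostly on a retained-intron model, POLE and LIG1 are spread over 4 classes, and the protein-coding share is above 50% from TYMS rightwards.

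Of the 344 models, 175 passed the count filter, and 0 of them were called in any comparison at an adjusted p below 0.05 over 49518 models in edgeR. The share of all models called was 0.00202% for nuclease-SMARCA4 against nuclease-NT and 0.00606% for YTHDF2-SMARCA4 against YTHDF2-NT. It was 0.00404% for YTHDF2-NT against nuclease-NT, 0.00808% for YTHDF2-SMARCA4 against nuclease-SMARCA4 and 0.00606% for the difference of the guide effects. Among nuclease libraries the models of the list with the smallest p were MCM5-201, MCM3-201 and CDC6-201, with log2 fold changes of -0.52, -0.25 and -0.26. MCM3-201 had 85.4, 87.4 and 84.3 TPM in nuclease-SMARCA4, against 110.7, 112.7 and 112.6 TPM in nuclease-NT. Its adjusted p over all models was 1.0, at an unadjusted p of 0.000997. At an unadjusted p below 0.05 the list had 9 of 175 models in that comparison, against 4.72% of all models, and 8 for the guide with YTHDF2, against 4.33%. It had 19 between effectors with the NT guide, against 5.17%, 11 with the SMARCA4 guide, against 4.44%, and 8 for the difference, against 5.11%.

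Across all 12 libraries the list was steadier than most genes. The highest CPM was less than 1.5 times the lowest in 36 of the 41 genes, against 38.7% of all genes tested, and the median ratio was 1.33, against 1.61. The other 5 were CCNE2, MCM5, POLA1, CCND1 and MCM10, with ratios of 2.001, 1.60, 1.57, 1.54 and 1.52. Within groups, the median coefficient of variation of these genes was 3.32% in YTHDF2-SMARCA4, 8.07% in YTHDF2-NT, 4.34% in nuclease-SMARCA4 and 4.04% in nuclease-NT. Over all genes tested it was 7.79%, 17.4%, 8.76% and 8.25% in the same 4 groups. Higher counts give smaller counting error, and these genes have more counts than most, a part that was not tested.

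**Figure D3:**
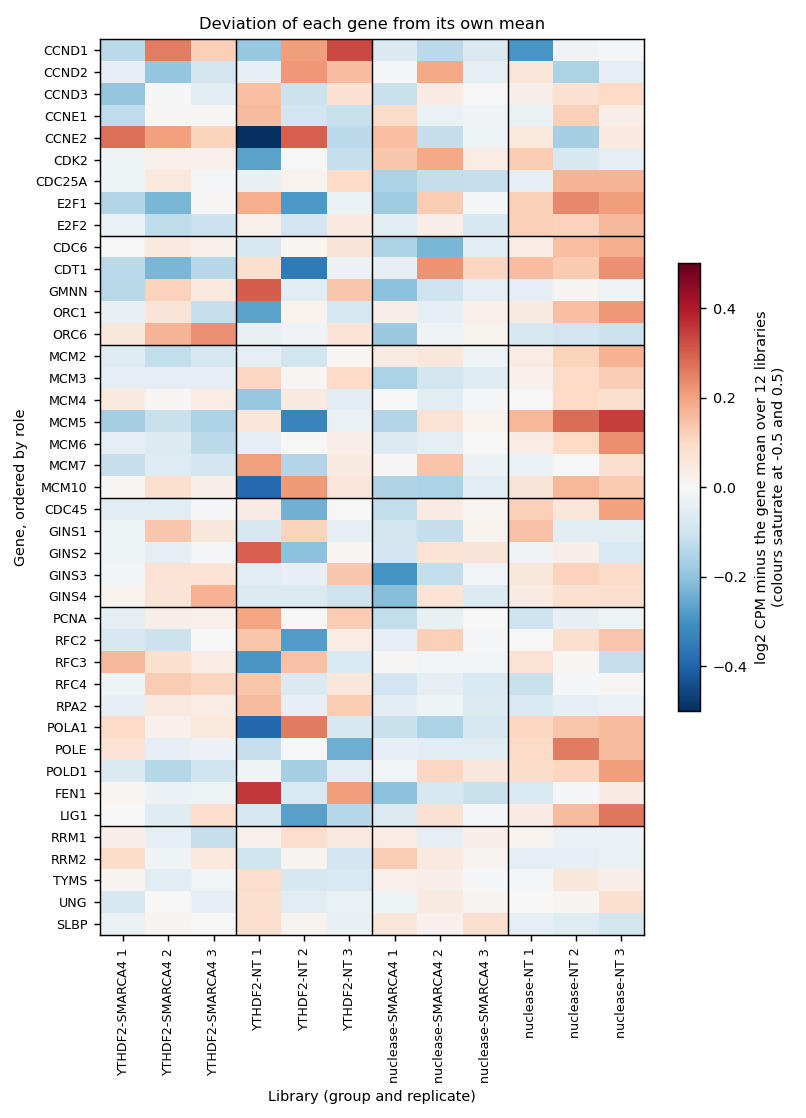
Log2 CPM of each gene minus its mean over the 12 libraries (colour, red above and blue below), with genes in rows by role and libraries in columns by group. The widest colours are in the YTHDF2-NT columns, where libraries 1 and 2 differ in opposite directions for CCNE2, MCM10, POLA1 and FEN1, and the nuclease-NT columns are mostly red.

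The YTHDF2-NT libraries differed from each other along transcript length. Spearman's rho between a gene's deviation and its length, over all 16297 genes, was -0.49, 0.42 and -0.23 in the 3 YTHDF2-NT libraries, and between -0.24 and 0.27 in the other 9. Over the 41 genes it was -0.58, 0.53 and -0.05 in YTHDF2-NT. CCNE2, MCM10 and POLA1 were low in the first library and high in the second, and FEN1 was the reverse. The main model of FEN1 has 2296 bases, against 2724 for CCNE2, 4547 for MCM10 and 5440 for POLA1. The rho used lengths weighted by abundance, such as 1736 bases for FEN1. Genes with main models of like length went both ways. CDK2, with a main model also of 2296 bases, had 106.1 CPM in the first library and 127.8 CPM in the second. With main models of 2402 bases, RFC3 had 93.7 and then 126.7 CPM, and MCM5 214.1 and then 163.0 CPM. Their weighted lengths were less alike, at 2062 bases for CDK2, 2267 for RFC3 and 2144 for MCM5. The part of length in the spread of these libraries was not tested. All comparisons with YTHDF2-NT below contain this spread, and a fit that removes a length trend from each library gave 0 calls in the list in all 5 comparisons.

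With the nuclease, no gene of the list passed the test for the SMARCA4 guide. The edgeR fit called 0 of 41 at an adjusted p below 0.05, and 0.00614% of all genes tested, and 8 of the 41 had an unadjusted p below 0.05, or 19.5%, against 10.9% of all genes. The mean was lower in nuclease-SMARCA4 than in nuclease-NT for 29 genes and higher for 12, with a median log2 fold change of -0.08, against -0.0002 over all genes tested. No cause of these lower means was tested. Even had a gene been called, bulk RNA could not tell fewer cells in S phase from less RNA per cell. For 13 genes all nuclease-SMARCA4 libraries lay below all nuclease-NT libraries, where 12.2% of all genes tested did so. For 2 genes they all lay above, against 12.8% of all genes tested.

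CDC6 gave the smallest p of the list. It had 170.3, 162.2 and 183.4 CPM in nuclease-SMARCA4, against 194.9, 210.9 and 215.7 CPM in nuclease-NT. The groups did not overlap, and the log2 fold change was -0.27 ± 0.07 (SE, adjusted p = 0.211 in edgeR), or -17.0% with a 95% interval of -25.2% to -7.91%. CDC25A had 218.0, 224.1 and 224.7 CPM in nuclease-SMARCA4, against 236.9, 274.0 and 274.1 CPM in nuclease-NT. Again the groups did not overlap, at a log2 fold change of -0.24 ± 0.07 (adjusted p = 0.250). The other genes with an unadjusted p below 0.05 were the ring subunits MCM5 (-0.28), MCM3 (-0.18) and MCM6 (-0.16), GINS3 (-0.23), POLE (-0.22) and E2F2 (-0.16), in log2 fold change.

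In the other direction, SLBP had 128.9, 125.4 and 130.5 CPM in nuclease-SMARCA4, against 119.8, 118.1 and 115.9 CPM in nuclease-NT. RRM2 had 246.4, 233.0 and 227.6 CPM in nuclease-SMARCA4, against 218.1, 218.0 and 220.5 CPM in nuclease-NT. Both were higher in every nuclease-SMARCA4 library, by small amounts, with log2 fold changes of 0.12 ± 0.06 (adjusted p = 0.487) and 0.11 ± 0.06 (adjusted p = 0.568).

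By role, the median log2 fold change with the nuclease was -0.16 for the MCM genes, of which 6 of 7 were lower, and -0.13 for CDC45 and GINS, of which 4 of 5 were lower. It was -0.10 for licensing (4 of 5 lower), -0.07 for the fork enzymes (8 of 10 lower), -0.03 for the cyclin and E2F group (5 of 9 lower) and 0.02 for the nucleotide group (2 of 5 lower). Of the 20 genes with an E2F match in a promoter window, 17 were lower, with a median of -0.13. Of the 13 with a window and no match, 9 were lower, with a median of -0.05. The ranges overlapped, at -0.27 to 0.03 with a match and -0.24 to 0.12 without. The 8 genes without a window, MCM5 among them, are left out, and the part of the E2F match was not tested. With YTHDF2, 12 of the 20 were lower (median -0.04) and 7 of the 13 (median -0.02). For the effectors with the NT guide the medians were -0.08 with a match and -0.02 without, with the SMARCA4 guide 0.03 and -0.03, and for the difference of the guide effects 0.08 and 0.02. The 95% intervals of all 41 genes lay within a 1.5-fold change in either direction, from -29.6% at the lowest bound to 34.0% at the highest.

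Other fits of the same counts did call genes. A fit of the 6 nuclease libraries alone, which leaves out the wide YTHDF2-NT group, called 6 genes of the list, POLA1, MCM10, CDC6, MCM5, CDC25A and POLE, all lower, with adjusted p between 0.0306 and 0.0471. That fit called 550 genes in all. DESeq2 called CDC6 alone of the list (log2 fold change -0.27, adjusted p = 0.0273) and 140 genes in all. The list's median was -0.0516 without the third nuclease-NT library. The median over the list had a within-group SD of 0.0307 in nuclease-SMARCA4 and 0.0253 in nuclease-NT.

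**Figure D4:**
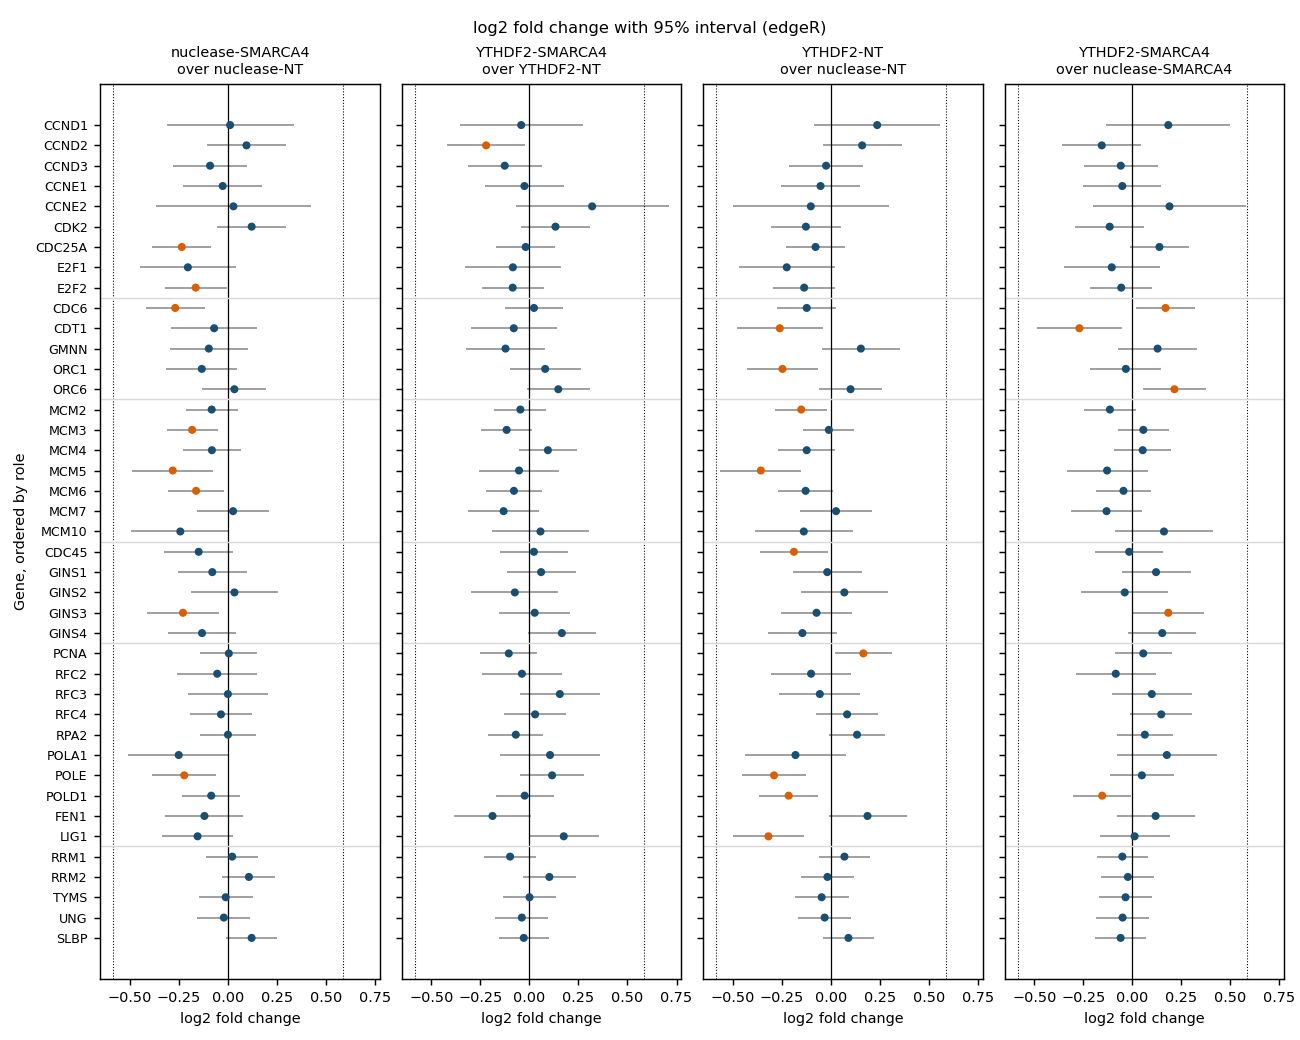
Fitted log2 fold change of each gene with its 95% interval in 4 comparisons, the first-named over the second-named group of each panel; orange points have an unadjusted p below 0.05, and dotted lines mark 1.5-fold. Of the 41 points, 29 lie left of 0 for the guide with the nuclease and for the effectors with the NT guide, and none of the 41 passed the adjusted test.

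With YTHDF2, 0 of 41 genes were called for the SMARCA4 guide, and 0.0% of all genes tested. Only CCND2 had an unadjusted p below 0.05, or 2.44% of the list against 6.82% of all genes. The list's median log2 fold change was -0.03, against -0.0085 over all genes tested, with 18 genes higher and 23 lower in YTHDF2-SMARCA4. That median was 0.0045 without the first YTHDF2-NT library and -0.0514 without the second. Without overlap between the libraries, 2 genes were higher, where 4.29% of all genes tested were, and 2 were lower, where 4.98% were.

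CCND2 had 69.0, 62.1 and 66.6 CPM in YTHDF2-SMARCA4, against 68.8, 82.5 and 79.0 CPM in YTHDF2-NT. The groups overlapped through the first YTHDF2-NT library, at an edgeR log2 fold change of -0.22 (SE 0.09, adjusted p = 0.703). FEN1 had 160.9, 156.5 and 156.7 CPM in YTHDF2-SMARCA4, against 204.0, 151.3 and 184.6 CPM in YTHDF2-NT, at -0.19 ± 0.09 (adjusted p = 0.703). Its YTHDF2-SMARCA4 libraries lay close together inside the wide range of YTHDF2-NT. LIG1 had 55.4, 53.0 and 58.7 CPM in YTHDF2-SMARCA4, against 52.2, 45.7 and 50.1 CPM in YTHDF2-NT, at 0.18 ± 0.08 (adjusted p = 0.703). GINS4 had 52.5, 54.3 and 58.5 CPM in YTHDF2-SMARCA4, against 49.6, 49.6 and 48.4 CPM in YTHDF2-NT, at 0.17 ± 0.08 (adjusted p = 0.703). LIG1 and GINS4 were higher in all YTHDF2-SMARCA4 libraries. MCM3 and MCM6, at -0.12 and -0.08, were the genes with all YTHDF2-SMARCA4 libraries lower.

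The 95% interval lay within a 1.5-fold change for 40 genes, all but CCNE2. CCNE2 had 30.2, 28.8 and 27.0 CPM in YTHDF2-SMARCA4, against 15.4, 30.8 and 22.9 CPM in YTHDF2-NT, a log2 fold change of 0.32 ± 0.18 (adjusted p = 0.706). Without the second YTHDF2-NT library, whose length trend runs opposite to the other YTHDF2-NT libraries, the fit called FEN1 (-0.29), CCNE2 (0.58), RFC3 (0.28) and POLA1 (0.29), with adjusted p of 0.0252 to 0.0450, and 1585 genes in all. DESeq2 on all libraries called 0 of the list. Without the first, POLA1 turned to -0.04, against 0.11 with all libraries.

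The difference between the guide effects, YTHDF2 minus nuclease, was tested as an interaction. It called 0 of 41 genes in edgeR and 0 in DESeq2, and 0.0% of all genes tested in edgeR. An unadjusted p below 0.05 was found for 7 genes, or 17.1%, against 11.1% of all genes. The median difference was 0.06 on the log2 scale, against -0.0046 over all genes, and 27 genes had a positive difference and 14 a negative one. POLE gave the smallest p, with a difference of 0.34 ± 0.11 (SE, adjusted p = 0.380). It had 89.3, 82.5 and 83.4 CPM in YTHDF2-SMARCA4 and 78.5, 85.2 and 71.8 CPM in YTHDF2-NT, while nuclease-SMARCA4 had 82.7, 82.1 and 81.8 CPM and nuclease-NT 91.0, 101.8 and 94.9 CPM. The nuclease-NT libraries of POLE stood above all others. For CDC6 the difference was 0.29 ± 0.10 (adjusted p = 0.380), with 190.3, 196.6 and 193.0 CPM in YTHDF2-SMARCA4 and 180.0, 191.6 and 198.9 CPM in YTHDF2-NT beside the nuclease values above.

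On the negative side, CCND2 had a difference of -0.32 ± 0.13 (adjusted p = 0.425), with 70.4, 80.9 and 68.8 CPM in nuclease-SMARCA4 and 74.0, 63.6 and 68.7 CPM in nuclease-NT. SLBP had -0.15 ± 0.08 (adjusted p = 0.510), with 120.8, 124.9 and 123.5 CPM in YTHDF2-SMARCA4 and 131.1, 125.0 and 120.6 CPM in YTHDF2-NT. In both genes the 2 guide comparisons pointed in opposite directions. The other genes with an unadjusted p below 0.05 were LIG1 (0.33), CDC25A, GINS3 and GINS4, all with positive differences. The 95% intervals of 37 genes lay within 1.5-fold, and those of CCND2, CCNE2, MCM10 and POLA1 reached beyond it. Without the second YTHDF2-NT library POLA1 (0.54, adjusted p = 0.0229) and POLE (0.41, adjusted p = 0.0274) were called, among 1444 genes in all, and the list's median difference was 0.0408.

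Between the effectors with the NT guide, 0 of 41 genes were called, and 0.0491% of all genes tested. These libraries also serve as the NT side of the guide comparisons, so the values are not independent of those above. YTHDF2-NT was lower than nuclease-NT for 29 genes and higher for 12, with a median log2 fold change of -0.07, against 0.0058 over all genes. An unadjusted p below 0.05 was found for 9 genes, 22.0%, against 10.9% of all genes. Without overlap, 11 genes were lower, where 5.96% of all genes tested were, and 4 were higher, where 6.86% were.

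LIG1 had 52.2, 45.7 and 50.1 CPM in YTHDF2-NT, against 56.8, 61.7 and 66.3 CPM in nuclease-NT, an edgeR log2 fold change of -0.32 (SE 0.08, adjusted p = 0.273). POLE, with the values above, had -0.29 ± 0.08 (adjusted p = 0.273), and its groups did not overlap either. MCM5 had the lowest value of the list, -0.36 ± 0.10 (adjusted p = 0.275), with 214.1, 163.0 and 200.4 CPM in YTHDF2-NT, against 230.3, 248.9 and 260.7 CPM in nuclease-NT. CDT1, ORC1, MCM2, CDC45 and POLD1 were the others below an unadjusted p of 0.05 with lower means in YTHDF2-NT. PCNA had 501.7, 436.5 and 477.7 CPM in YTHDF2-NT, against 407.3, 425.5 and 429.8 CPM in nuclease-NT, at 0.17 ± 0.07 (adjusted p = 0.395). RPA2 had 261.2, 227.4 and 255.3 CPM in YTHDF2-NT, against 222.0, 227.0 and 229.3 CPM in nuclease-NT, at 0.13 ± 0.07 (adjusted p = 0.483), and its second YTHDF2-NT library lay inside the nuclease-NT range.

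By role, the median log2 fold change was -0.13 for the MCM genes, -0.12 for licensing, -0.08 for the fork enzymes and for the cyclin and E2F group, -0.07 for CDC45 and GINS and -0.02 for the nucleotide group. DESeq2 called POLE, MCM5 and LIG1 (adjusted p of 0.0367, 0.0496 and 0.04995) among 108 genes in all, and edgeR without the count filter called MCM5 (adjusted p = 0.0111) among 360. Without the second YTHDF2-NT library, edgeR called 7 of the list, POLE, POLA1, ORC1, MCM5 and LIG1 lower and FEN1 and PCNA higher, among 1610 genes. All 41 intervals of the comparison with every library lay within 1.5-fold.

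Between the effectors with the SMARCA4 guide, 0 of 41 genes were called, and 0.00614% of all genes tested. The list was evenly split, with 20 genes higher and 21 lower in YTHDF2-SMARCA4 than in nuclease-SMARCA4 and a median log2 fold change of -0.02, against 0.0007 over all genes. Leaving out 1 library, that median ran from -0.019 to 0.0154, with the upper value without the second nuclease-SMARCA4 library. An unadjusted p below 0.05 was found for 5 genes, 12.2%, against 11.5% of all genes. Without overlap, 10 genes were higher and 6 lower, where 13.4% of all genes tested were higher and 13.4% lower.

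CDT1 had 127.1, 119.0 and 126.5 CPM in YTHDF2-SMARCA4, against 135.6, 163.2 and 150.5 CPM in nuclease-SMARCA4, at an edgeR log2 fold change of -0.27 (SE 0.10, adjusted p = 0.367). POLD1 had 72.8, 69.3 and 71.4 CPM in YTHDF2-SMARCA4, against 75.8, 82.2 and 79.4 CPM in nuclease-SMARCA4, at -0.15 ± 0.07 (adjusted p = 0.430). Both were lower in all YTHDF2-SMARCA4 libraries. ORC6 had 73.3, 79.4 and 82.5 CPM in YTHDF2-SMARCA4, against 62.0, 69.6 and 71.3 CPM in nuclease-SMARCA4, at 0.21 ± 0.07 (adjusted p = 0.334). CDC6 was at 0.17 ± 0.07 (adjusted p = 0.398), and GINS3 at 0.18. ORC6 and CDC6 were higher in all YTHDF2-SMARCA4 libraries. Licensing genes thus lay at both ends of the list in this comparison, with CDT1 lowest and ORC6 highest. DESeq2 called 0 of the list. A fit of these 6 libraries alone called CDT1 (adjusted p = 0.0370) among 660 genes in all.

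Ratios within a library compare partners directly. GMNN over CDT1, the inhibitor over its target, was 3.92 ± 0.470 in YTHDF2-SMARCA4 and 3.07 ± 0.405 in nuclease-SMARCA4, and 4.27 ± 0.222 in YTHDF2-NT and 3.22 ± 0.225 in nuclease-NT, on TPM (SD, n = 3 each). The groups of each effector pair did not overlap. RRM1 over RRM2 was 1.22 ± 0.0948 in YTHDF2-SMARCA4, against 1.53 ± 0.0331 in YTHDF2-NT. It was 1.28 ± 0.0776 in nuclease-SMARCA4, against 1.39 ± 0.0581 in nuclease-NT. CCND2 over CCND1 was 4.56 ± 0.473 in nuclease-SMARCA4, against 3.74 ± 0.0180 in nuclease-NT. In CPM, CCND1 averaged 10.72 ± 0.255 and 10.65 ± 1.15 in these groups, in that order, and CCND2 73.4 ± 6.61 and 68.8 ± 5.20. Retained-intron models held 0.0% of CCND1 TPM in nuclease-SMARCA4 and 12.35% ± 16.03 in nuclease-NT. The part of these models in the ratio was not tested. CCNE1 over CCNE2 overlapped in every comparison. Over 16 exact two-sided permutation tests of these 4 ratios, the smallest p was 0.1, the least that 3 against 3 libraries allow, and 0.32 after Benjamini-Hochberg adjustment.

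**Figure D5:**
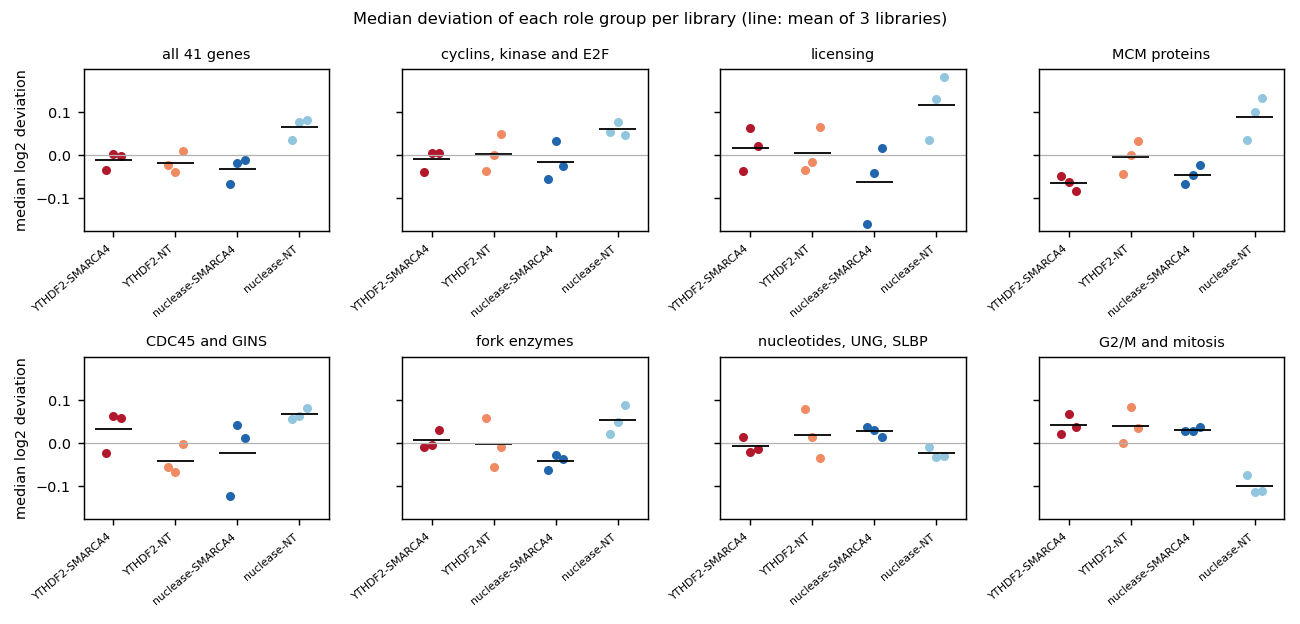
Median log2 deviation of the genes of each role from their 12-library means, 1 point per library, with a line at the mean of 3; the last panel is a list of G2/M and mitosis genes. The nuclease-NT points lie above 0 for all 41 genes and for 5 of the 6 roles, and below 0 for the nucleotide group and for G2/M genes.

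Per library, the list's median deviation from the 12-library mean was -0.03, 0.00 and -0.00 in YTHDF2-SMARCA4 and -0.02, -0.04 and 0.01 in YTHDF2-NT. It was -0.07, -0.02 and -0.01 in nuclease-SMARCA4 and 0.04, 0.08 and 0.08 in nuclease-NT, so the nuclease-NT libraries were the highest 3 of 12. Other lists also differed between these groups. A list of 17 G2/M and mitosis genes had medians of 0.03, 0.03 and 0.04 in nuclease-SMARCA4, against -0.07, -0.11 and -0.11 in nuclease-NT. For 8 histone genes they were -0.44, -0.20 and -0.27 in nuclease-SMARCA4, against 0.09, 0.26 and 0.37 in nuclease-NT. The rho with transcript length lay between -0.24 and 0.03 in nuclease-SMARCA4 and between 0.06 and 0.15 in nuclease-NT, and over the 41 genes the fold change with the nuclease had a rho of -0.28 with length. With a length trend removed from each library, the list's median with the nuclease was -0.06, against -0.08 without that step, CDC6 was at -0.24, against -0.27, and POLA1 at -0.19, against -0.25. The part of the G2/M and histone lists was not tested.

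Genes of the same pathways outside the list gave 0 calls in every comparison in edgeR, in 30 G1/S regulators, 16 genes of origin licensing and firing, 27 other fork enzymes and 15 other genes of nucleotide supply. At an unadjusted p below 0.05 these 4 lists had 3, 2, 3 and 0 genes for the guide with the nuclease, and 0, 2, 5 and 1 with YTHDF2. The difference of the guide effects had 2, 3, 4 and 0 such genes, the effectors with the NT guide 2, 2, 4 and 1, and the effectors with the SMARCA4 guide 3, 4, 4 and 1. Over all genes tested the shares were 10.9%, 6.82%, 11.1%, 10.9% and 11.5% in the order of these comparisons. The 16 licensing and firing genes had a median log2 fold change of -0.12 with the nuclease, where 14 were lower, and 0.10 with YTHDF2, where 5 were lower. Beside these, DESeq2 called FBXW7 between effectors with the SMARCA4 guide and TOP1 with the NT guide, and none of the other genes of these 4 lists. The licensing and firing genes had a median difference of 0.14.

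Named by the smallest p in each direction, the G1/S regulators with the nuclease were FBXW7, which marks cyclin E for destruction (-0.34, adjusted p = 0.268), and MYC (0.28, adjusted p = 0.316). FBXW7 had 27.3, 23.7 and 26.9 CPM in nuclease-SMARCA4, against 27.7, 36.1 and 34.6 CPM in nuclease-NT. With YTHDF2 they were LIN37 (-0.41) and E2F8 (0.36), and for the difference MYC (-0.29) and E2F8 (0.60). Between effectors they were the CDK inhibitors CDKN1A (-0.29) and CDKN1B (0.24) with the NT guide, and CDKN1A (-0.16) and FBXW7 (0.41) with the SMARCA4 guide. Adjusted p for these ran from 0.234 for FBXW7 between effectors to 0.724 for LIN37.

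For licensing and firing they were MCM8 (-0.26) and TIMELESS (0.05) with the nuclease, and CLSPN, which carries the checkpoint signal at forks (-0.34), and TICRR, needed to load CDC45 (0.30), with YTHDF2. For the difference they were TIMELESS (-0.05) and MCM8 (0.37). Between effectors they were TICRR (-0.31) and CLSPN (0.37) with the NT guide, and TIMELESS (-0.09) and CLSPN (0.37) with the SMARCA4 guide. CLSPN had 110.1, 77.5 and 82.2 CPM in YTHDF2-NT, against 63.7, 74.0 and 70.4 CPM in nuclease-NT, with the first YTHDF2-NT library far above the others.

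Among other fork enzymes they were the primase subunit PRIM2 (-0.24) and RPA1 (0.10) with the nuclease, SSRP1 (-0.22) and RFC5 (0.13) with YTHDF2, and POLD2 (-0.41) and PRIM2 (0.33) for the difference. Between effectors they were PRIM2 (-0.24) and TOP1 (0.24) with the NT guide and CHTF8 (-0.18) and TOP1 (0.17) with the SMARCA4 guide. In nucleotide supply they were SAMHD1 (-0.13) and PAICS (0.13) with the nuclease, ATIC (-0.19) and DCK (0.20) with YTHDF2, and ATIC (-0.19) and MTHFD1 (0.11) for the difference. Between effectors they were SHMT1 (-0.18) and ATIC (0.13) with the NT guide and SHMT1 (-0.16) and SAMHD1 (0.12) with the SMARCA4 guide. None of these passed the adjusted edgeR test, and values in parentheses are log2 fold changes or, for the difference, differences of them.

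The G2/M genes, which act after replication, had 15 of 17 means higher with the nuclease (median log2 fold change 0.15) and 7 of 17 with YTHDF2 (-0.03), and edgeR and DESeq2 called 0. The genes with the smallest p were MKI67 (-0.06) and AURKA (0.19) with the nuclease, CDC20 (-0.11) and BUB1 (0.17) with YTHDF2, and UBE2C (-0.37) and MKI67 (0.24) for the difference. Between effectors all 17 means were higher in YTHDF2-NT than in nuclease-NT (median 0.17), led by CENPE (0.38, adjusted p = 0.320), and with the SMARCA4 guide PLK1 (-0.15) and MKI67 (0.41) were named. At an unadjusted p below 0.05 the G2/M list had 6 genes with the nuclease, 0 with YTHDF2 and 6 for the difference, where 10.9%, 6.82% and 11.1% of all genes had. Between effectors it had 5 genes with the NT guide and 4 with the SMARCA4 guide, where 10.9% and 11.5% of all genes had. Of 9 histone genes, 8 passed the filter, edgeR called 0, and 3, 2 and 5 had an unadjusted p below 0.05 for the guide with the nuclease, with YTHDF2 and for the difference. Between effectors 2 histone genes had with the NT guide and 6 with the SMARCA4 guide, where all 8 were higher in YTHDF2-SMARCA4, with a median log2 fold change of 0.57. Most histone mRNAs lack a poly(A) tail, so a poly(A) library holds few of them.

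HIST1H2AC, a core histone gene, had the smallest p of the histone list in all 5 comparisons. It had 8.09, 8.24 and 10.1 CPM in nuclease-SMARCA4, against 16.1, 16.3 and 17.6 CPM in nuclease-NT, at an edgeR log2 fold change of -0.92 (SE 0.17, adjusted p = 0.122 in edgeR). It had 12.3, 18.7 and 16.6 CPM in YTHDF2-SMARCA4, against 10.3, 8.89 and 12.5 CPM in YTHDF2-NT, at 0.59 ± 0.16 (adjusted p = 0.703). DESeq2 called it in all comparisons but the guide with YTHDF2, and HIST1H4H with the nuclease. The difference of the guide effects was 1.51 ± 0.23 (adjusted p = 0.0985), and the effectors differed by -0.65 (NT guide) and 0.86 (SMARCA4 guide). HIST1H4C was named in the other direction with the nuclease (0.27), for the difference (-0.60) and with the NT guide (0.99), and HIST1H4H with YTHDF2 (-0.57).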

How the data were processed

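Messenger RNA of 12 HEK-293T libraries was measured by poly(A) RNA sequencing. The authors deposited 1 table per library, in which each estimated count of 200403 targets came from kallisto. Sleuth and hg38 are also in the submitters' processing notes, without versions. The deposited TPM values are, per the file headers, length-scaled abundances. Counts were summed per gene ID and rounded to whole numbers. The 41 genes and the other gene lists were chosen with earlier results of these data known.

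edgeR 4.0.16 (R 4.3.3) was run as a quasi-likelihood test with TMM, filterByExpr and 1 mean per group on all 12 libraries. It kept 16297 genes, left 8 residual degrees of freedom, and estimated a biological coefficient of variation of 11.4%. All tests are two-sided, and a call means an adjusted p (Benjamini-Hochberg, all genes tested) below 0.05. The SE is the absolute log2 fold change over the square root of F, and intervals are for 95%. The series speaks of biological replicates without naming separate cultures, so p-values may measure technical spread only. The fit was tested on simulated counts.

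By rule, values in every library were given for the 2 genes with the smallest p in each direction of each comparison and for the highest and lowest gene of each role by TPM, and other lists gave the gene with the smallest p in each direction. MCM5 and CCNE2 were given in full after their values were seen, as were the 3 further transcript models. Alternatives were DESeq2 1.42.0, its size factors in edgeR, no count filter, fits of 2 groups, a replicate block, a length trend, both of these, and leaving out each library. A planned search of protein motifs was not run. Exon overlaps used the GENCODE annotation for hg38.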

Additional observations from a re-analysis of the deposited data

How the results depend on the processing

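For the 5 comparisons, in the order of guide with the nuclease, guide with YTHDF2, difference, effectors with the NT guide and effectors with the SMARCA4 guide, edgeR called 1, 0, 0, 8 and 1 of all genes. DESeq2 called 140, 1, 55, 108 and 102, and edgeR without the count filter 333, 214, 493, 360 and 296. Fits of the 2 groups called 550 for the guide with the nuclease and 660 for the SMARCA4 guide. The length trend called 7, 2, 15 and 10 genes for the guide with the nuclease, the difference, the NT guide and the SMARCA4 guide. Genes of the list called were 1 (nuclease) and 3 (NT guide) with DESeq2, 6 (nuclease) and 1 (SMARCA4 guide) with 2 groups, and 1 (NT guide) without the filter.

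Same-numbered libraries did not deviate alike: over 18 pairs of them the correlation of deviations ran from -0.18 to 0.05. The labels do not say whether samples of the same number were paired, and these correlations cannot decide it. With a replicate block 2, 1, 4 and 3 genes were called for the guide with the nuclease, the difference, the NT guide and the SMARCA4 guide, and with block and length trend 62, 13, 22 and 17. The block called 0 genes of the list.

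Leaving out 1 library, genes called ran from 0 to 44, 0 to 1585, 0 to 1444, 1 to 1610 and 1 to 70, and genes of the list from 0 to 0, 0 to 4, 0 to 2, 0 to 7 and 0 to 0. The upper ends came without the second YTHDF2-NT library, except 44 and 70, which came without the first. The list's median ran from -0.107 to -0.0516, -0.0514 to 0.0045, 0.0408 to 0.0932, -0.098 to -0.0628 and -0.019 to 0.0154. POLA1 with YTHDF2 turned to -0.0401 without the first YTHDF2-NT library, and was at 0.290 without the second. Of 603 values of named genes under alternatives, 577 kept their direction and side of the threshold, 25 passed it newly and 1 turned. The named genes here took in every gene of the list that an alternative called. The 25 follow from that choice, so these counts are not a rate of stability. Size factors of DESeq2 in edgeR moved no count of the list. The cause of these changes was not tested. Each gene of the list had at least 108 counts in every library, and the intervals rest on 3 libraries per group.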
